A study of Mus musculus with 24 samples.

Results

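The genes described here encode the machinery of vesicle trafficking, endocytosis and membrane recycling in mpkCCD cells, a line of mouse kidney epithelium derived from cortical collecting duct. They were taken by gene name from a list of 43: the Rab GTPases, their recycling effectors, the SNARE proteins and the factors that load and recycle them, the clathrin and caveolar coats, retromer, ESCRT and exocyst. A row was present for 42 of the 43 in a table of 12224 rows, and all 42 passed the filter on low values. Vamp7 was not analysed here.

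In principal cells of the collecting duct, the water channel AQP2 is held in vesicles below the apical membrane. Vasopressin sends these vesicles to the surface, where Rab GTPases and a myosin motor deliver them, the exocyst tethers them and SNARE proteins on vesicle and membrane pair to drive fusion. Clathrin with its adaptor AP-2, and in some membranes caveolae, take the channel back in, after which Rab11 carriers and retromer return it or ESCRT sends it to the lysosome. Transcript levels alone do not show where any of these proteins act.

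The agonist groups received 1 µM cpd1324, a compound that activates the zinc-sensing receptor GPR39, and the vehicle groups received 0.1% DMSO. Both were applied for 2 h to the basolateral side, and both contained 10 µM ZnCl2, so every group was exposed to added zinc. The groups were WT cells with agonist, WT cells with vehicle, Gpr39 knockout (KO) cells with agonist and KO cells with vehicle, with 6 poly(A) libraries in each of the 4 groups. Cells had been grown on permeable inserts for 9 days without the vasopressin analogue dDAVP and kept in simple medium for the last 24 h, so none of the groups was vasopressin-stimulated. The number of KO clones and the edited part of Gpr39 are not stated, and neither is whether replicates were separate cultures, so the p-values measure the spread between these libraries, which may be technical.

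Levels are given in scaled units: reads divided by the authors' library factor and by gene length, times 1 constant (92.1) that sets the mean library sum to 1000000. A fold change is a difference between group means on the log2(scaled units + 0.5) scale, with limma's moderated standard error (SE) over all 24 libraries. Members with an adjusted p under 0.05, corrected over the 11557 rows tested, are the ones called. Recovered read totals were 29.8 M to 51.9 M per library (M, reads × 1000000), and a member had between 211 (Dab2) and 57216 (Ap2m1) reads in a library. Gpr39 stood at 9.37 ± 0.645 scaled units in KO cells with vehicle and at 21.6 ± 1.61 in WT cells with vehicle (SD, n = 6 each), and no KO library reached the lowest WT library. Aqp2 itself was low, at 11.7 ± 1.73 scaled units in WT cells with agonist and 17.7 ± 4.94 in WT cells with vehicle, and higher in KO cells, at 66.3 ± 15.1 with agonist and 87.3 ± 18.0 with vehicle. Of 9 principal cell markers 8 had a row, as did 4 of 5 epithelial markers. The summed epithelial markers stood at 8485 to 11011 scaled units in WT cells with agonist and 3954 to 4514 with vehicle, and the principal cell markers at 452 to 578 and 554 to 683. In KO cells with agonist and with vehicle the epithelial sums were 3671 to 4156 and 3779 to 4299. The principal cell sums there were 613 to 875 and 802 to 912. Among markers of other cells 3 of 6 intercalated cell genes had a row, with summed levels of 34.6 to 52.1 in KO cells with agonist, 46.2 to 57.7 in KO cells with vehicle, 17.9 to 29.5 in WT cells with agonist and 24.3 to 33.8 in WT cells with vehicle, and Foxi1 had none. For 2 of 6 vessel and immune genes, Cd68 and Csf1r, the sums were 51.0 to 57.5, 48.1 to 68.9, 65.6 to 80.0 and 59.9 to 66.8 in the same groups, and Pecam1 and Ptprc had no row. The 1 proximal tubule gene of 6, Lrp2, was at 4.49 to 8.91 in KO and 8.06 to 16.4 in WT cells, the 1 fibroblast gene of 6, Col1a1, at 0.631 to 1.77 and 0.629 to 3.27, and the 1 thick limb and distal tubule gene of 5, Slc12a3, at 4.11 to 7.75 and 0.200 to 0.740. The part of these markers in the members' values was not tested. Fewer cells of a type and less RNA per cell cannot be told apart in such bulk libraries. One library stood apart: KO_vehicle 6 was the highest or lowest of its group in 32 of the 42 members. The value without it is given where leaving it out changed a member's call or moved its called value by over 1.5 times.

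Cells with an intact Gpr39 gene raised a subset of the trafficking genes within 2 h of agonist. Of the 42 members, 22 were called higher, 2 lower and 18 neither, where 28.6% of all tested rows were called higher and 28.6% lower. The members' median log2 fold change was 0.12, against −0.01 over all rows, and 5 members passed 1.5-fold: Rab11fip1, Cav1, Exoc5, Cltc and Stx3. Of all 42 members, 19 were higher and 0 lower without overlap between agonist and vehicle libraries, where 19.8% of all rows were higher and 17.7% lower without overlap. Of these 19 members, 18 were called and Rab11b was not. The summed deposited level was 1.18 times as high with agonist as with vehicle in WT cells, and the calls of members with small changes differed between scalings. When all libraries were given 1 common total, the members split into 8 higher and 19 lower, where 12.4% of all rows were called higher and 60.1% lower, and their median was −0.12, against −0.24 over all rows. Quantile normalization gave 10 and 10, where 23.3% of all rows were higher and 35.7% lower, with medians of −0.02 and −0.06. The 8 genes called higher under all 3 scalings were Rab11fip1, Cav1, Exoc5, Cltc, Stx3, Rab5a, Rab10 and Rab11a, and the 2 called lower under all 3 were Vamp8 and Stx4a.

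**Figure D1:**
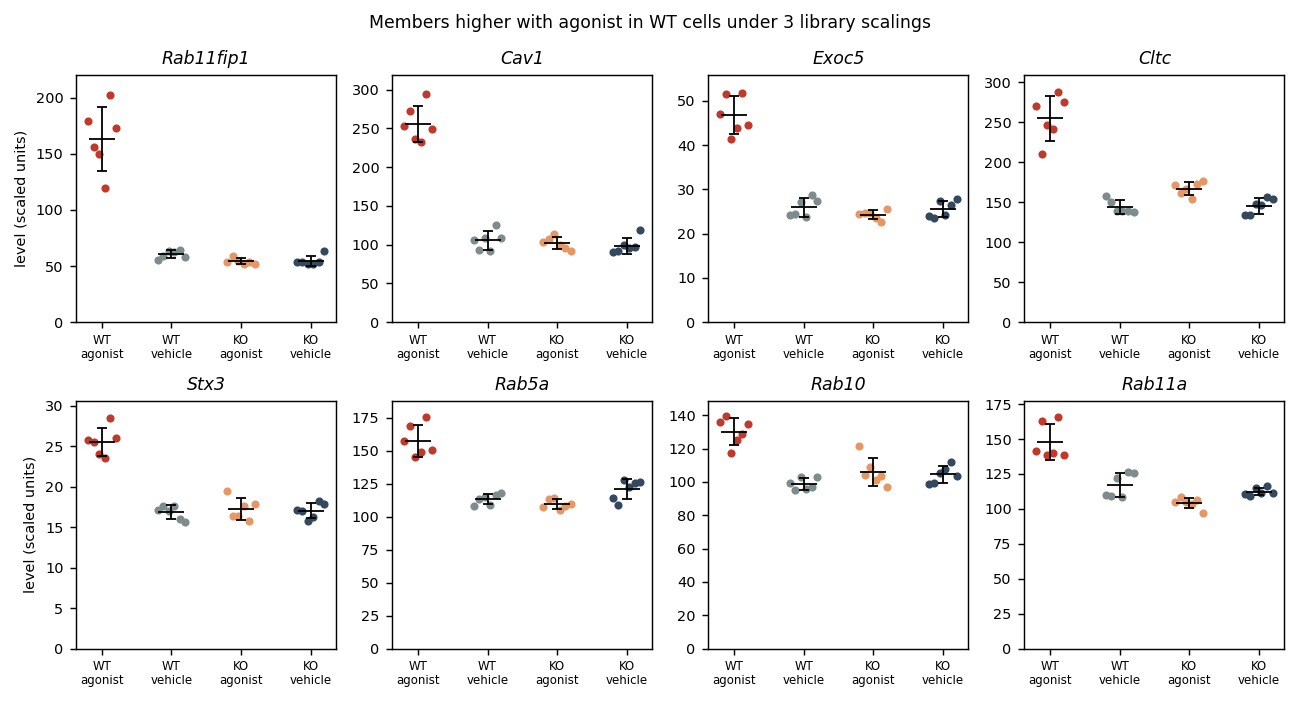
Level in scaled units (vertical axes, from 0) of the 8 members called higher with agonist in WT cells under all 3 scalings, with 1 point per library and the mean ± SD of 6 libraries per group. In each panel the WT agonist libraries lie above every WT vehicle library, from Rab11fip1 at 163 against 60.6 to Rab11a at 148 against 117.

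Promoter sequence was examined for members that moved together with agonist. RefSeq (GRCm38.p6) windows of 300 bases, from 250 before to 50 after the start, matched 37 members, and both strands were searched for the cAMP response element TGACGTCA, the AP-1 motif TGANTCA and the serum response factor motif CArG; none of these patterns can contain another. The cAMP response element letters stood in the windows of 5 members, Rab5a, Stxbp3, Napa, Cltb and Ap2b1, all among the 22 called higher in WT cells, although only Rab5a kept its call under all 3 scalings. That is 13.5% of members with a window, against 3.73% of the 8739 tested genes with one and 1.79% of all 32851 windows. By call in WT cells, the letters stood in 5 of the 19 higher members with a window, against 4.99% of the higher, 3.13% of the lower and 3.29% of the uncalled tested genes. The CArG letters were found in Rab11a alone (1.63% of all windows) and the AP-1 letters in Cav2 and Exoc5 (7.81% of all windows). The stretches are shown 5′ to 3′ on each gene's own strand, with the motif in capitals. They are given because 5 members from different complexes share the cAMP response element letters close to their start. Rab11a and Cav2 are shown beside them for the other motifs. All 7 shown were called higher, as were 19 of the 37 members with a window. Exoc5, called higher under all 3 scalings, is not shown, and its AP-1 letters begin 30 bases after the start.
Rab5a: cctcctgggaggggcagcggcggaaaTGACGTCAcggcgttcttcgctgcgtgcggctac
Stxbp3: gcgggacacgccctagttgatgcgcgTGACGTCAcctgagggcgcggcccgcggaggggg
Napa: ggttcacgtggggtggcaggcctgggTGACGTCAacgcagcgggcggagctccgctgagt
Cltb: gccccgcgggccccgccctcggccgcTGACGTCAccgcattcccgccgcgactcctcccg
Ap2b1: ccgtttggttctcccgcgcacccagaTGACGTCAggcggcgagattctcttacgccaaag
Rab11a: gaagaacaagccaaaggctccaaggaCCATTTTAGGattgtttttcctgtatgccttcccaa
Cav2: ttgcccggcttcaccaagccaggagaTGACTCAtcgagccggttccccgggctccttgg
In GRCm38.p6 these are chr17:53479180-53479239 (+) for Rab5a, chr3:108840577-108840636 (−) for Stxbp3, chr7:16098547-16098606 (+) for Napa and chr13:54611361-54611420 (−) for Cltb. Ap2b1 is at chr11:83302624-83302683 (+), Rab11a at chr9:64737875-64737936 (−) and Cav2 at chr6:17281067-17281125 (+). The motif begins 28 bases before the start in Rab5a, 108 in Stxbp3, 7 in Napa, 21 in Cltb, 47 in Ap2b1, 154 in Rab11a and 92 in Cav2. A match describes these letters only, and no binding was measured.

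Rab GTPases mark the compartments along the route. Of the 8 measured, 5 were called higher with agonist in WT cells and 0 lower, where 28.6% of all rows were called in each direction. With the same total the counts were 3 and 3, and with quantile normalization 3 and 2. Rab5a, which drives fusion of early endosomes, ranged from 145 to 175 scaled units (median 154) in WT cells with agonist and from 108 to 118 (median 114) with vehicle, with no overlap (log2 fold change 0.47 ± 0.05, adjusted p = 4.77e-09). Its paralog Rab5c, on average at 309.9 and 298 scaled units in the same groups, was not called (0.06 ± 0.04, adjusted p = 0.237). Rab11a, the GTPase of recycling endosomes that carries AQP2 vesicles, ranged from 139 to 166 (median 141) with agonist and from 109 to 126 (median 116) with vehicle. The 2 groups did not overlap (0.34 ± 0.05, adjusted p = 2.76e-06), while its paralog Rab11b stood at 78.5 ± 2.04 and 73.3 ± 1.42 (0.10 ± 0.05, adjusted p = 0.0779). Rab10, which takes vesicles from the Golgi and endosomes to the plasma membrane, ranged from 117 to 139 (median 132) with agonist, above all vehicle libraries at 95.1 to 103 (0.40 ± 0.05, adjusted p = 1.75e-07). Rab8a, a related GTPase of exocytosis, was at 118 ± 2.97 and 113 ± 3.01 (0.07 ± 0.05, adjusted p = 0.274). Rab7, of late endosomes and lysosomes, and Rab14, of traffic between Golgi and endosomes, were called higher as deposited (0.20 ± 0.06, adjusted p = 0.00392, and 0.15 ± 0.05, adjusted p = 0.0112). With the same total they were at −0.04 and −0.09, neither of them called, and with quantile normalization Rab7 was called lower (−0.14, adjusted p = 0.0403).

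The largest change of any member was in Rab11fip1, which encodes a Rab11-binding protein of recycling endosomes. Its levels were 179, 156, 149.7, 119.8, 203 and 173 scaled units in the 6 WT agonist libraries and lay between 55.4 and 64.4 in WT cells with vehicle. The lowest agonist library therefore stood well above the highest vehicle library (1.41 ± 0.08, 2.65-fold, adjusted p = 1.48e-13). Rab11fip2, which links Rab11 to myosin Vb, was at 18.0 ± 1.5 and 18.0 ± 0.259 (−0.01 ± 0.07, adjusted p = 0.944), and Myo5b, the motor itself, at 29.5 ± 5.25 and 30.9 ± 2.24 (−0.08 ± 0.09, adjusted p = 0.486). Only 1 of the 3 recycling effectors was thus called as deposited, and the spread of Myo5b among agonist libraries, from 21.8 to 35.6, was wider than the difference between its groups. With the same total Rab11fip2 (−0.24, adjusted p = 0.00466) and Myo5b (−0.32, adjusted p = 0.00428) were called lower, where the median of all rows was −0.24.

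Of 3 vesicle SNARE genes, 1 was called higher and 1 lower with agonist in WT cells. The 4 syntaxin and Snap23 genes had 1 and 1 too, where 28.6% of all rows were called in each direction. With the same total the counts were 0 and 1 for the vesicle SNAREs and 1 and 3 for the others. Stx3, the syntaxin of the apical membrane, ranged from 23.6 to 28.5 scaled units (median 25.7) in WT cells with agonist and from 15.7 to 17.7 (median 17.1) with vehicle, without overlap (0.59 ± 0.05, adjusted p = 8.92e-10). Stx4a, encoding syntaxin 4, which in many epithelia lies on the basolateral membrane, ranged from 61.5 to 72.9 with agonist and from 72.0 to 81.0 with vehicle (−0.17 ± 0.07, adjusted p = 0.0290). The Stx4a groups overlapped and its call was lost without WT_agonist 1 or 4 or WT_vehicle 3 or 5 (adjusted p = 0.0527 to 0.0757). Vamp8, a vesicle SNARE of endosomes and regulated secretion, fell to 253 to 299.8 (median 272) with agonist, against 299.8 to 368 (median 327) with vehicle (−0.27 ± 0.06, adjusted p = 0.000204). Vamp3, the vesicle SNARE of recycling endosomes, ranged from 102 to 123 with agonist and from 83.2 to 93.4 with vehicle (0.31 ± 0.05, adjusted p = 5.58e-06), but was not called with the same total (0.07, adjusted p = 0.130). Vamp2 (0.08 ± 0.08), Stx7 (−0.08 ± 0.06) and Snap23 (0.02 ± 0.05) were not called (adjusted p = 0.386, 0.313 and 0.796). Stx7 was called lower with the same total (−0.32, adjusted p = 1.86e-05) and with quantile normalization (−0.29, adjusted p = 0.000109).

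Among the proteins that clasp and take apart SNARE complexes, 3 of 4 were called higher as deposited, against 28.6% of all rows, but 0 of 4 with the same total and 1 of 4 with quantile normalization. Napa, encoding alpha-SNAP, was at 145 ± 10.6 scaled units with agonist and 121 ± 5.98 with vehicle (0.25 ± 0.04, adjusted p = 2.29e-05), and Nsf, the ATPase it recruits, at 52.1 ± 3.10 and 45.9 ± 2.37 (0.18 ± 0.05, adjusted p = 0.00201). Neither Napa nor Nsf overlapped between the groups. With the same total Napa was at 0.01 and Nsf at −0.06, neither of them called. Stxbp3, the Munc18 protein that pairs with syntaxin 4, was called at 0.15 ± 0.05 (adjusted p = 0.0190), lost the call without WT_vehicle 2 (adjusted p = 0.0539) and was at −0.09 with the same total and −0.02 with quantile normalization. Stxbp2, the Munc18 protein of syntaxin 3, was at 0.01 ± 0.04 (adjusted p = 0.859).

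Of the clathrin coat genes the heavy chain had the highest fold change. Cltc was at 270.0, 209.7, 246, 241, 287 and 275 scaled units in the 6 WT agonist libraries and between 138 and 158 in WT cells with vehicle, with no overlap (0.82 ± 0.06, 1.76-fold, adjusted p = 2.28e-11). Cltb, 1 of the light chains, was at 216 ± 12.5 and 181 ± 10.2 (0.26 ± 0.05, adjusted p = 4.98e-05) as deposited and at 0.02 with the same total (adjusted p = 0.723). The other light chain, Clta, was at 196 ± 8.49 and 195 ± 6.84 (0.00 ± 0.05, adjusted p = 0.968). Of the 5 AP-2 subunits only beta2, Ap2b1, was called: it was at 235 ± 5.20 with agonist and 208 ± 8.39 with vehicle (0.18 ± 0.03, adjusted p = 7.81e-05), but at −0.06 with the same total and −0.05 with quantile normalization. Ap2m1, the mu2 subunit that binds cargo signals and the most abundant AP-2 transcript per length, stood at 584 ± 14.0 and 602 ± 18.0 (−0.04 ± 0.03, adjusted p = 0.248). Under the other scalings Ap2m1 was called lower, at −0.29 with the same total (adjusted p = 2.43e-07) and −0.38 with quantile normalization (adjusted p = 1.26e-08). Ap2a1, Ap2a2 and Ap2s1 ranged from 0.00 to 0.12 and were not called, although Ap2a1 (0.16, adjusted p = 0.0443) and Ap2a2 (0.10, adjusted p = 0.0373) were without WT_vehicle 1. Dnm2, the dynamin that pinches vesicles off, was called at 0.13 ± 0.04 (adjusted p = 0.00530) as deposited and lower, at −0.11, with the same total (adjusted p = 0.0385). Dab2, an endocytic adaptor with few reads, was at 8.62 ± 1.69 and 8.18 ± 2.27 scaled units (adjusted p = 0.654).

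All 3 caveolar genes were called higher as deposited, where 28.6% of all rows were, and only Cav1 with the same total or with quantile normalization. Cav1, the scaffold of caveolae, was at 253, 272, 237, 232, 294 and 249 scaled units in the WT agonist libraries and between 91.5 and 126 with vehicle, so that its lowest agonist library exceeded its highest vehicle library (1.28 ± 0.08, 2.42-fold, adjusted p = 2.33e-13). Cavin1, which coats caveolae, was at 273 ± 7.15 and 223 ± 8.78 without overlap (0.29 ± 0.04, adjusted p = 1.46e-06), but at 0.05 with both the same total and quantile normalization, and not called. Cav2, the partner of Cav1 and its neighbour on chromosome 6, was at 156 ± 12.2 and 139.9 ± 12.9 (0.16 ± 0.06, adjusted p = 0.0244). Its groups overlapped, its call was lost without WT_agonist 2 or 5 or WT_vehicle 1, 2 or 4 (adjusted p = 0.0550 to 0.0687), and it was at −0.08 with the same total and −0.04 with quantile normalization.

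Of the sorting and tethering genes, 1 of 2 exocyst, 2 of 3 ESCRT and 1 of 2 retromer members were called higher as deposited. None was called lower, where 28.6% of all rows were called in each direction. With the same total only Exoc5 was called higher, and 1 exocyst, 1 ESCRT and 2 retromer members were called lower. Of all rows, 12.4% were then called higher and 60.1% lower. The largest change among these genes was in Exoc5. This subunit of the exocyst, also known as SEC10, was at 47.0, 51.6, 41.4, 43.9, 51.8 and 44.6 scaled units in WT cells with agonist and between 23.7 and 28.8 with vehicle (0.84 ± 0.06, 1.79-fold, adjusted p = 9.3e-12), with a clear gap between the groups. Exoc1, another subunit, was at 48.1 ± 1.48 and 46.6 ± 2.44 (0.05 ± 0.05, adjusted p = 0.435). Vta1, a cofactor of the ATPase that disassembles ESCRT, was at 123 ± 10.0 and 104 ± 2.69 (0.24 ± 0.04, adjusted p = 3.16e-05) as deposited and at 0.00 with the same total. Hgs, the ESCRT subunit that first captures ubiquitinated cargo, was called at 0.11 ± 0.04 (adjusted p = 0.0310), but not without WT_agonist 1, 3 or 5 or WT_vehicle 5 or 6 (adjusted p = 0.0559 to 0.0927), and with the same total it was lower, at −0.13 (adjusted p = 0.0231). Vps35, the core of retromer, was called at 0.09 ± 0.04 (adjusted p = 0.0319), lost the call without WT_agonist 1, 2 or 5 or WT_vehicle 1, 2 or 3 (adjusted p = 0.0601 to 0.0942) and was called lower with the same total, at −0.15. Vps26a, its partner, was at 0.00 ± 0.07 and Tsg101, of ESCRT-I, at 0.12 ± 0.07 (adjusted p = 1.00 and 0.178).

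**Figure D2:**
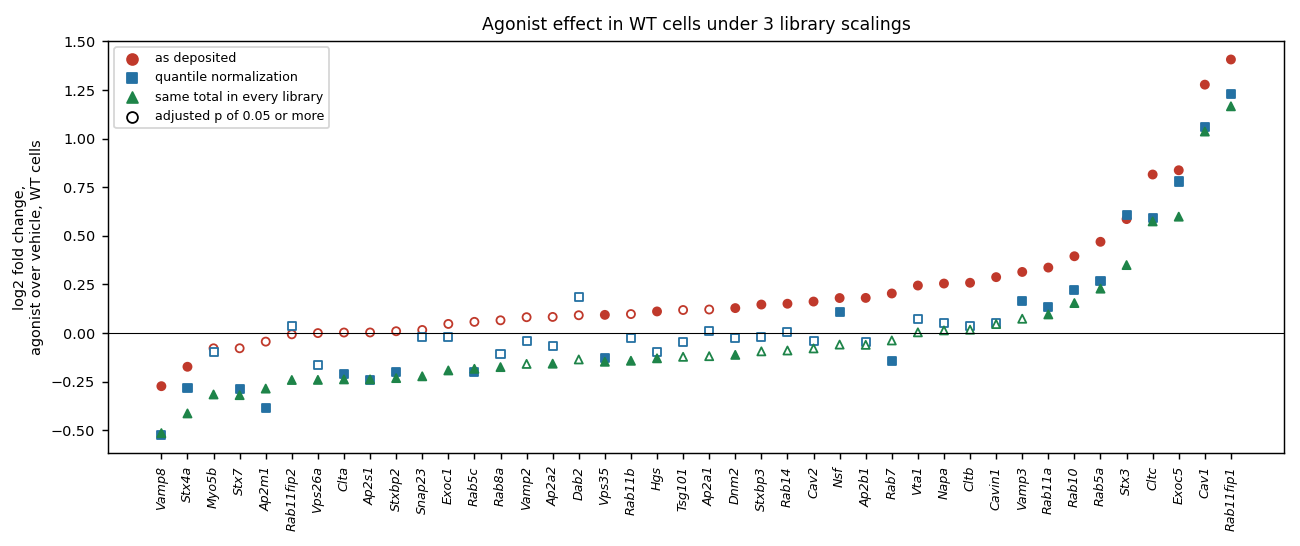
Log2 fold change of agonist over vehicle in WT cells (vertical axis) for the 42 members, in order of the deposited scaling (circles), with quantile normalization (squares) and with the same total in every library (triangles); open symbols have an adjusted p of 0.05 or more. The 8 genes at the right, up to Rab11fip1 at 1.41, 1.23 and 1.17, are filled above 0 under each scaling, whereas Vps35, Hgs and Dnm2 are above 0 as deposited and filled below 0 with the same total.

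Ratios of paired members within a library do not depend on the scaling between libraries. In WT cells, 6 of 8 pairs passed an exact two-sided permutation test for agonist against vehicle, with p adjusted over 24 tests and 0.00216 the smallest p possible. The mean Cav1/Cav2 ratio was 1.63 with agonist and 0.753 with vehicle, and the Stx3/Stx4a ratio 0.378 and 0.221. Rab5a/Rab5c was at 0.508 and 0.381, Rab8a/Rab10 at 0.909 and 1.14, and Clta/Cltb at 0.906 and 1.08; these 5 pairs had no overlap and an exact adjusted p of 0.00866 each. Rab11a/Rab11b was at 1.88 and 1.59 with overlap (exact adjusted p = 0.0148). The balance of these 6 pairs thus differed between agonist and vehicle, while that of Vamp2/Vamp3 (0.704 and 0.828, exact adjusted p = 0.128) and Ap2a1/Ap2a2 (0.685 and 0.666, exact adjusted p = 0.298) did not pass. Each of the 6 holds a member called higher in WT cells as deposited, so the ratios are not independent of those calls. Pairs of other genes were not tested, and 28.6% of all rows were called in each direction in this comparison.

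**Figure D3:**
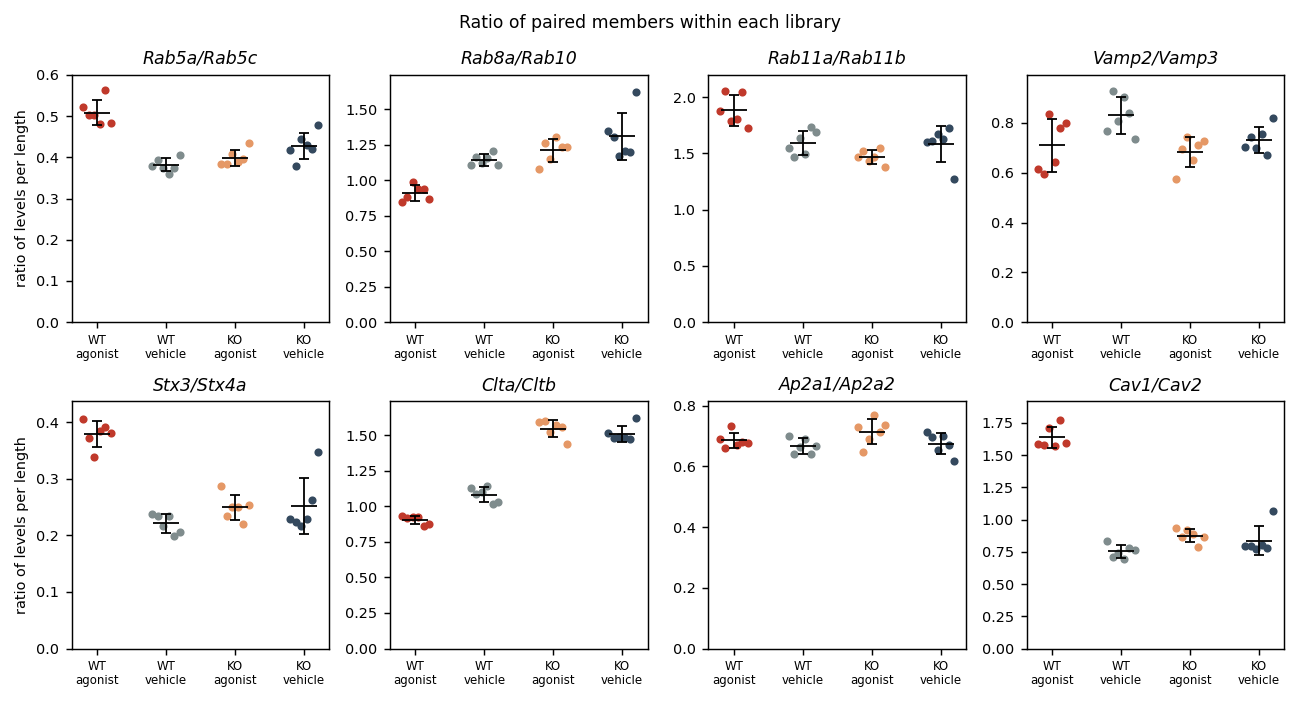
Ratio of the levels per length of 8 pairs of members (vertical axes, from 0), with 1 point per library and the mean ± SD of 6 libraries per group. For Cav1/Cav2 the WT agonist libraries lie between 1.57 and 1.78 and the WT vehicle libraries between 0.695 and 0.838; for Clta/Cltb the KO vehicle libraries (1.47 to 1.62) lie above the WT vehicle libraries (1.02 to 1.14).

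In KO cells the same treatment gave small changes, of which those of Cltc, Ap2b1 and Cavin1 were in genes also called higher in WT cells. Of the 42 members 5 were called higher, Cltc, Ap2a1, Ap2a2, Ap2b1 and Cavin1, and 4 lower, Rab7, Stx7, Snap23 and Cltb, where 4.66% of all rows were called higher and 4.64% lower. None passed 1.5-fold, and the members' median was −0.03, against −0.01 over all rows. Of all 42 members, 2 were higher and 3 lower without overlap, where 2.55% of all rows were higher and 1.97% lower without overlap. All of these were called except Rab11a, which was lower. The 5 called higher included 3 AP-2 subunits. Ap2b1 was at 200.1 ± 4.86 scaled units with agonist and 175 ± 7.94 with vehicle in KO cells (0.19 ± 0.03, adjusted p = 0.00741), with no overlap. It was the only one of the 9 calls that held in every setting tried. Ap2a1 was at 72.7 ± 4.98 and 62.7 ± 6.41 (0.22 ± 0.07, adjusted p = 0.0402), and Ap2a2 at 102 ± 2.39 and 92.8 ± 5.53 (0.13 ± 0.04, adjusted p = 0.0419). Cltc was at 167 ± 7.95 and 145 ± 9.85 (0.20 ± 0.06, adjusted p = 0.0412) and Cavin1 at 171 ± 7.65 and 152 ± 9.64 (0.17 ± 0.04, adjusted p = 0.0188). Snap23, the SNARE on the plasma membrane, was at 36.9 ± 1.27 and 42.2 ± 3.37 (−0.19 ± 0.05, adjusted p = 0.0215), without overlap.

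Most of these KO calls depended on which libraries were included. Without KO_agonist 1 the higher count was 1, without KO_agonist 3, 4, 5 or 6 it was 2, without KO_vehicle 1, 3, 5 or 6 it was 3, and without KO_agonist 2 it was 8. The lower count was 0 without KO_agonist 5, 1 without KO_agonist 1, 3, 4 or 6 or KO_vehicle 3 or 5, and 2 without KO_vehicle 4 or 6. Without both KO_vehicle 6 and KO_agonist 2 the counts were 9 higher and 3 lower. The number of calls over all rows moved as well: it was 1075 with every library, between 284 (without KO_agonist 1) and 1851 (without KO_agonist 2) when 1 KO library was left out, and 2623 without both. KO_vehicle 6 held the lowest Ap2a1, Ap2a2, Ap2s1 and Stx4a and the highest Rab7, Rab8a, Rab14 and Clta of its group, and without it Ap2a1 (0.16, adjusted p = 0.0563), Ap2a2 (0.10, adjusted p = 0.0524), Stx7 (−0.17) and Cltb (−0.11, adjusted p = 0.0696 for both) were not called. Rab7 was at −0.12 without it and −0.18 with it, and was called in both cases (adjusted p = 0.0429 and 0.0460). None of the 8 paralog ratios passed the exact permutation test between agonist and vehicle in KO cells (exact adjusted p = 0.172 to 0.985); without KO_vehicle 6 the ratios Rab11a/Rab11b and Cav1/Cav2 did (exact adjusted p = 0.0130 and 0.0378).

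**Figure D4:**
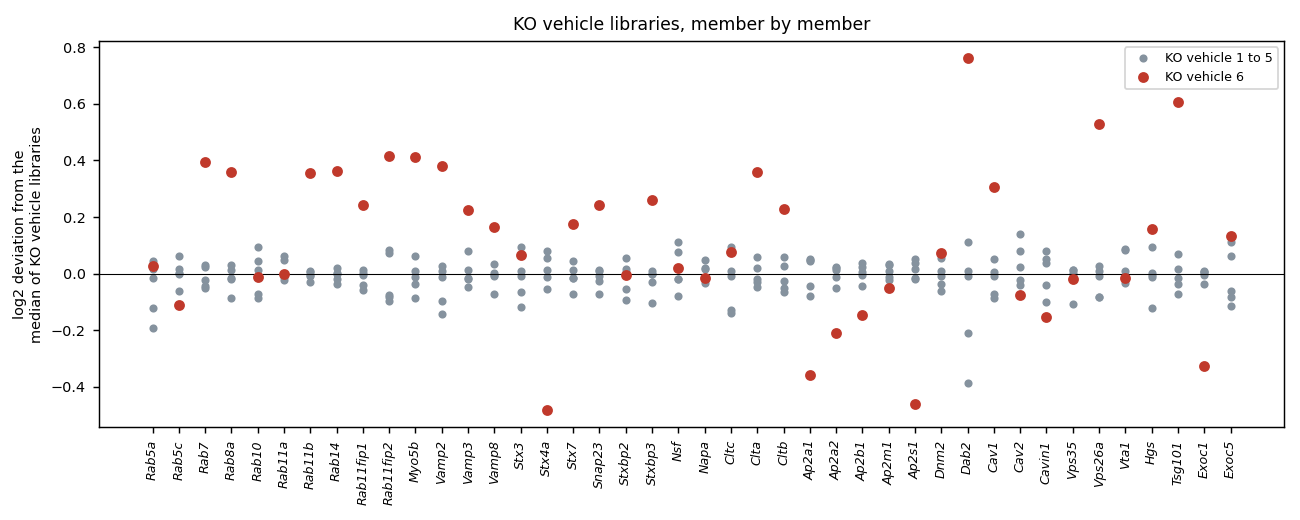
Log2 deviation of each KO vehicle library from the median of the 6 KO vehicle libraries (vertical axis) for the 42 members, with KO_vehicle 6 as large red points. KO_vehicle 6 lies above the other 5 libraries in 22 members and below them in 10.

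The difference between the WT and the KO response was tested directly. For 18 of the 42 members the signed log2 fold change was called higher in WT than in KO cells and for 0 lower, where 21.5% of all rows were called higher in this contrast and 19.6% lower. In limma with voom the lower count was 0 too. At an unadjusted p under 0.05 there were 22 members in either direction, and the share of all rows at that threshold is not given here. A higher value need not be a larger response in WT cells. Snap23, 1 of the 18, was at 0.02 in WT cells, not called, and at −0.19 in KO cells, called lower. The members' median difference was 0.14, against −0.02 over all rows. It was 1.42 ± 0.12 for Rab11fip1 (adjusted p = 2.33e-10), 1.23 ± 0.11 for Cav1 (8.82e-10), 0.91 ± 0.09 for Exoc5 (3.06e-09), 0.61 ± 0.09 for Cltc (2.48e-06), 0.61 ± 0.07 for Rab5a (4.63e-08), 0.57 ± 0.08 for Stx3 (1.02e-06) and 0.45 ± 0.07 for Rab11a (1.31e-05). These 7 held in all 35 settings tried. In KO cells Rab11fip1 was at 54.2 ± 2.69 scaled units with agonist and 54.7 ± 4.35 with vehicle, Cav1 at 102 ± 8.07 and 98.9 ± 10.3, and Exoc5 at 24.3 ± 0.991 and 25.6 ± 1.90, and none of the 3 was called there. Rab10 (0.38), Vamp3 (0.37), Napa (0.34) and Cltb (0.41) were called as deposited but not with the same total. Rab7, Rab14, Snap23, Stxbp3, Vps35, Vta1 and Tsg101 made up the other calls, and none of them stayed called higher with the same total. Rab7 was then at 0.11 (adjusted p = 0.22) and Vta1 at 0.00 (adjusted p = 0.98), and the rest were below 0. With quantile normalization Rab7 and Vta1 were not called either (adjusted p = 0.93 and 0.17). The calls of Stxbp3, Vps35 and Tsg101 (adjusted p = 0.0385, 0.0391 and, rounded, 0.05) stood in only 22, 17 and 11 of the 35 settings. Stxbp3 was lost without WT_agonist 2, 3, 5 or 6, WT_vehicle 2, 3 or 4 or KO_agonist 2, 4 or 6. Vps35 was lost without WT_agonist 1, 2 or 5, WT_vehicle 1, 2, 3 or 4, KO_agonist 1, 3, 5 or 6 or KO_vehicle 1, 2, 3 or 5. Tsg101 was lost without WT_agonist 1 to 5, WT_vehicle 2 to 6, KO_agonist 1 to 5 or KO_vehicle 3. Without KO_vehicle 6 all 18 were called, Tsg101 at 0.16 in place of 0.26, and Cavin1 was called as well (0.15, adjusted p = 0.0221). Ap2b1 showed no difference past the test, with a WT minus KO value of −0.01 ± 0.05 (adjusted p = 0.904). With the same total the split was 7 higher and 17 lower, where 9.77% of all rows were higher and 55.5% lower (all-row median −0.28, members' median −0.13), and with quantile normalization 11 and 10, where 17.3% were higher and 26.9% lower.

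**Figure D5:**
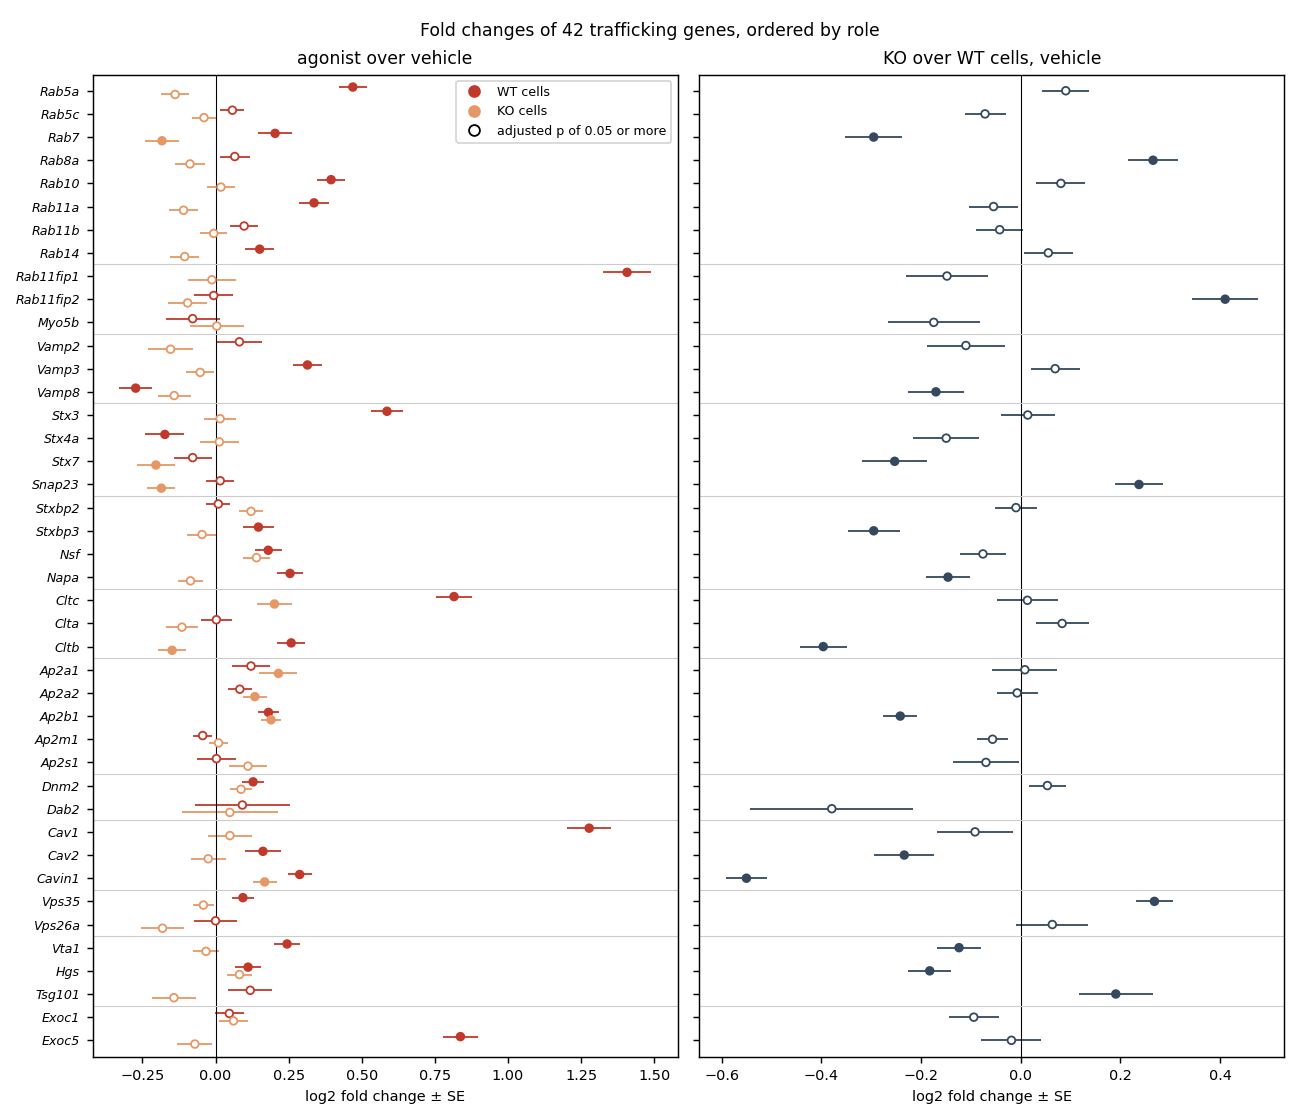
Log2 fold change ± SE (horizontal axes) of the 42 members in order of role. Left, agonist over vehicle in WT and in KO cells, where Rab11fip1 reaches 1.41 in WT cells and −0.01 in KO cells; right, KO over WT cells with vehicle, from Cavin1 at −0.55 to Rab11fip2 at 0.41. Filled points have an adjusted p below 0.05.

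Without agonist, the KO line differed from WT cells in 16 members. With vehicle, 5 were called higher in KO cells and 11 lower, where 23.9% of all rows were called higher and 23.9% lower. The members' median was −0.06, against 0.00 over all rows, and none passed 1.5-fold. Of all 42 members, 4 were higher and 5 lower without overlap, where 13.2% of all rows were higher and 14.1% lower without overlap. Each of these was among the called members. All 11 lower calls and 4 of the 5 higher ones held in all 24 settings tried. The other, Tsg101 (0.19 ± 0.07, adjusted p = 0.0375), was lost without WT_vehicle 2, 3, 4 or 6 (adjusted p = 0.0573 to 0.0696) and when only these 2 groups were fitted (adjusted p = 0.123). Without KO_vehicle 6 there were 15 lower members, where 26.1% of all rows were called lower and 26.4% higher. Rab11b (−0.10), Myo5b (−0.24), Vamp2 (−0.18) and Dab2 (−0.51) were then called as well (adjusted p = 0.00155 to 0.0275). Tsg101, still called without that library, was at 0.09 (adjusted p = 0.0409).

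The deepest was Cavin1, which ranged from 139 to 163 scaled units (median 154) in KO cells with vehicle and from 214 to 234 (median 223) in WT cells with vehicle, far from overlapping (−0.55 ± 0.04, adjusted p = 4.67e-11). Cltb ranged from 128 to 157 in KO cells and from 169 to 195 in WT cells (−0.40 ± 0.05, adjusted p = 1.96e-07). Clta was not called (0.08 ± 0.05, adjusted p = 0.205), and the Clta/Cltb ratio was 1.51 in KO cells and 1.08 in WT cells with vehicle, without overlap (exact permutation test, adjusted p = 0.00866). Rab7 (−0.30 ± 0.06), Stxbp3 (−0.30 ± 0.05), Stx7 (−0.25 ± 0.06), Ap2b1 (−0.24 ± 0.03) and Cav2 (−0.23 ± 0.06) were lower too (adjusted p = 0.000155, 4.99e-05, 0.00231, 2.69e-06 and 0.00248). Hgs (−0.18), Vamp8 (−0.17), Napa (−0.15) and Vta1 (−0.12) completed the lower group. Rab11fip2 ranged from 21.7 to 31.0 scaled units in KO cells and from 17.6 to 18.2 in WT cells (0.41 ± 0.07, adjusted p = 1.37e-05), so that each KO library was above every WT library. Vps35 (0.27 ± 0.04), Rab8a (0.27 ± 0.05) and Snap23 (0.24 ± 0.05) were also higher (adjusted p = 1.49e-06, 0.000122 and 0.000221). Besides Clta/Cltb, the ratios Rab8a/Rab10 (1.30 in KO and 1.14 in WT cells) and Rab5a/Rab5c (0.427 and 0.381) passed the exact permutation test (adjusted p = 0.0260 and 0.0289). Both were lost without WT_vehicle 3 or without WT_vehicle 4, and Rab5a/Rab5c also without WT_vehicle 1 or 5 or KO_vehicle 3 or 4 (adjusted p = 0.0519 to 0.0577). KO_vehicle 6 held the highest ratio of its group in both pairs, at 1.62 and 0.478, against group medians of 1.26 and 0.425. Without it both pairs still passed, and 1 more of the 8 pairs did.

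Several of these members lie on chromosomes whose genes differed between the lines as a whole. On chromosome 6, which holds Rab7, Vamp8, Cav1 and Cav2, 71.3% of the 527 tested rows were lower in KO cells, with a median log2 fold change of −0.33. On chromosome 10 (Stx7, Vps26a and Vta1) 52.8% were lower (median −0.16), and on chromosome 13 (Cltb) 48.8% (median −0.18). On chromosome 8 (Rab8a, Rab11fip1, Stxbp2 and Vps35) 55.3% were higher (median 0.17). Rab7 lay 0.03, Vta1 0.04 and Cav2, Vps35 and Rab8a 0.09 above their chromosome's median, and Stx7 lay 0.09 below it. Cltb lay 0.21, Stxbp2 0.18 and Rab11fip1 0.32 below their chromosome's median, and Vamp8 0.16, Vps26a 0.23 and Cav1 0.24 above it. Away from these 4 chromosomes, Cavin1 (chromosome 11, median −0.04), Stxbp3 (chromosome 3, 0.01), Ap2b1 (chromosome 11) and Rab11fip2 (chromosome 19, 0.11) stood 0.51, 0.31 and 0.20 below and 0.30 above their chromosome's median. The part of these chromosome-wide differences in the members' values was not tested. For agonist against vehicle in WT cells the medians of these 4 chromosomes lay between −0.03 and 0.01.

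With agonist in both lines, 25 members were lower and 3 higher in KO than in WT cells, where 32.1% of all rows were called lower and 32% higher. Of all 42 members, 20 were lower and 1 higher without overlap, where 24.6% of all rows were lower and 21.7% higher without overlap. Each of these was among the called members. This contrast uses the same libraries as those above. With the same total the split was 14 lower and 19 higher, where 14.9% of all rows were lower and 63.0% higher, and with quantile normalization 19 and 13, where 25.9% were lower and 39.1% higher.

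A wider list of 130 trafficking genes that are not members was examined the same way; 116 were tested. In WT cells with agonist 41 were higher and 30 lower, with a median of 0.02, where 28.6% of all rows were called in each direction. The highest called were Vps37b, of ESCRT-I, at 95.9 scaled units with agonist and 20.5 with vehicle (2.20 ± 0.10), Ehd1, an ATPase of endocytic recycling, at 429 and 149 (1.52 ± 0.07), Picalm, which assembles clathrin, at 224 and 96.3 (1.20 ± 0.07), and Ehd4, a relative of Ehd1, at 340.3 and 203 (0.74 ± 0.06). The lowest were Cavin2, at 1.98 and 5.09 (−1.18 ± 0.13), Rab11fip4, at 34.2 and 48.7 (−0.51 ± 0.08), Rab3d, a GTPase of secretory granules (−0.42 ± 0.05), and Vamp1 (−0.39 ± 0.11). All 8 also differed in response between WT and KO cells, with differences of 2.34 for Vps37b, 1.49 for Ehd1, 1.40 for Picalm, 0.75 for Ehd4, −1.27 for Cavin2, −0.74 for Rab11fip4, −0.46 for Rab3d and −0.41 for Vamp1. Rab genes were called higher in 11 and lower in 9 of 23 cases, caveolar genes in 3 and 1 of 6, exocyst genes in 1 and 0 of 6, endocytosis genes in 12 and 3 of 28, ESCRT genes in 10 and 5 of 22, SNARE genes in 4 and 6 of 20 and retromer genes in 0 and 6 of 11. In KO cells with agonist 7 of the 116 were higher and 5 lower, against 4.66% and 4.64% of all rows. With vehicle, KO cells had 19 higher and 27 lower, against 23.9% of all rows each way. The highest were Rab27b (0.61 ± 0.06), Rab4a (0.59 ± 0.05) and Rab27a (0.35 ± 0.06), GTPases of secretion and fast recycling, and the lowest Cavin2 (−1.10 ± 0.13), the exocyst subunit Exoc2 (−0.61 ± 0.04) and Necap1 (−0.57 ± 0.04), which binds AP-2.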

How the data were processed

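Poly(A) RNA was sequenced from 24 libraries of a mouse cell line, in 4 groups of 6 taken from the sample titles. The authors deposited 1 table with a signal value per gene and library. Per the submitters' processing notes, STAR 2.7.8a and GRCm39 were used; the counter, its strand setting and the normalization steps are not given in the sources used here. Each deposited signal times gene length was a multiple of 0.1, and factors of 0.754 to 1.46 made 100% of values whole within 0.08, so the signal was treated as reads per library factor and gene length. Overlapping antisense genes could share reads. Values were tested with limma 3.58.1 in R 4.3.3 (trend and robust moderation, 1 term per group, no replicate block, 20 residual degrees of freedom) on rows averaging 1 scaled unit or more, with a pseudocount of 0.5 and Benjamini-Hochberg adjustment. Fold changes of low genes are understated. Ratios were tested by exact permutation (scipy 1.17.1). Scripts were tested on simulated data. Replicate numbers were not used to pair the samples in the main tests. All members were named, and from the wider list the 4 highest and 4 lowest called genes in WT cells with agonist and the 3 and 3 for KO against WT cells. The motif search and the chromosome medians were added after values were seen. Members, lists, motifs and ratios were chosen with earlier results of these data known. Alternatives were other pseudocounts (0.1 and 2), filters (none and 5), scalings, moderation, a replicate block, fitting only the groups compared, and leaving out libraries. The planned edgeR fit was not run because the values are per length; voom on recovered reads, added after the data were seen, took its place.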

Additional observations from a re-analysis of the deposited data

Results flagged for a closer look

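Within a group of 6, a library was picked out where its gap to the nearest other library as a share of the group's range passed Dixon's critical value; chance does this in about 1 in 20 groups. Among 168 sets of 6 values, 28 were picked out, 20 of them in KO_vehicle 6. In scaled units KO_vehicle 6 was the highest of its group for Rab7 (532), Rab8a (168.5), Rab11b (87.7), Rab14 (113), Rab11fip1 (63.4), Rab11fip2 (31.0), Myo5b (34.8), Vamp2 (86.4), Snap23 (48.8), Stxbp3 (97.0), Clta (255), Dab2 (9.79), Cav1 (119), Vps26a (153) and Tsg101 (163). It was the lowest for Stx4a (51.5), Ap2a1 (50.6), Ap2a2 (82.1), Ap2s1 (186) and Exoc1 (36.1). KO_agonist 2 was highest for Rab7 (397), Rab11fip1 (59.2) and Stx7 (167). The others were Vta1 in KO_agonist 6 (86.9), Vps35 in KO_vehicle 4 (239), Nsf in WT_agonist 1 (58.1), Ap2s1 in WT_agonist 2 (284) and Snap23 in WT_vehicle 1 (32.7).

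The agonist effect differed between WT and KO cells, by the limma interaction term at an adjusted p below 0.05, in 18 members. The log2 differences, WT minus KO, were Rab11fip1 1.42, Cav1 1.23, Exoc5 0.91, Cltc 0.61, Rab5a 0.61, Stx3 0.57, Rab11a 0.45, Cltb 0.41, Rab7 0.39, Rab10 0.38, Vamp3 0.37, Napa 0.34, Vta1 0.28, Tsg101 0.26, Rab14 0.26, Snap23 0.20, Stxbp3 0.19 and Vps35 0.14.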

How the results depend on the processing

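Counts of members are given as higher and lower. Setting every library to the same total gave 8 and 19 for agonist in WT cells, 5 and 1 in KO cells, 7 and 17 for the difference between them, and 19 and 14 for KO against WT cells with agonist; quantile normalization gave 10 and 10, 7 and 2, 11 and 10, and 13 and 19. For agonist in KO cells 5.56% of all rows were higher and 2.75% lower with the same total. With quantile normalization these shares were 5.75% and 5.45%. In KO cells with agonist the lower count was 2 without a filter, 1 without trend and robust moderation and 2 when only the compared groups were fitted, where the higher count was 3. Without both KO_vehicle 6 and KO_agonist 2 the higher counts were 9 in KO cells with agonist and 5 for KO against WT cells with agonist. Of all rows, 10.8% and 34.4% were then called higher in these comparisons. Leaving out 1 library at a time gave 19 to 22 and 1 to 2 in WT cells, 1 to 8 and 0 to 5 in KO cells, 15 to 19 and 0 to 1 for the difference, 4 to 6 and 11 to 15 for KO against WT cells with vehicle, and 2 to 3 and 24 to 25 with agonist. Over all rows the higher and lower shares were 26.5% to 29.2% and 26.6% to 28.6% in WT cells. In KO cells they were 1.35% to 7.76% and 1.11% to 8.25%, and for the difference 20.4% to 24.0% and 18.1% to 22.4%. For KO against WT cells they were 22.3% to 26.4% and 22.1% to 26.1% with vehicle. With agonist they were 30.6% to 31.3% and 31.0% to 31.7%. The same omissions gave 6 paralog ratios past the test in WT cells, 0 to 2 in KO cells and 1 to 4 between the lines. Same-numbered libraries were not treated as pairs in the main tests. Their correlations of −0.28 to 0.49 cannot show whether they were handled together, which is not stated. With a replicate block the counts were 22 and 2 in WT cells, 6 and 3 in KO cells, 16 and 0 for the difference, 5 and 12 for KO against WT cells with vehicle and 3 and 25 with agonist, and the paired sign-flip test of the ratios left 0 in WT cells and 0 between the lines (smallest exact adjusted p = 0.107); with 6 pairs its smallest p is 0.0313 before adjustment over 24 tests, so these counts say nothing about stability. The edgeR fit was not run; voom gave 22 and 2, 5 and 3, 17 and 0, 5 and 12, and 3 and 25. In the same order, the rows called in either direction among all rows were 6593, 1122, 4732, 5513 and 7404 with the replicate block. With voom they were 6574, 1126, 4732, 5584 and 7360.

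Among values called as reported or under the alternative, signs turned only under the 2 other scalings. Values that were not called changed sign in other settings too, in up to 9 members a comparison when 1 library was left out, all within 0.0906 of 0. With the same total, agonist in WT cells gave Rab5c −0.18, Rab7 −0.038, Rab8a −0.17, Rab11b −0.14, Rab14 −0.089, Snap23 −0.22, Stxbp2 −0.23, Stxbp3 −0.094, Nsf −0.059, Clta −0.24, Ap2a2 −0.16, Ap2b1 −0.060, Ap2s1 −0.24, Dnm2 −0.11, Cav2 −0.079, Vps35 −0.15, Vps26a −0.24, Hgs −0.13 and Exoc1 −0.19. With quantile normalization it gave Rab5c −0.20, Rab7 −0.14, Stxbp2 −0.20, Stxbp3 −0.019, Clta −0.21, Ap2b1 −0.047, Ap2s1 −0.24, Dnm2 −0.025, Cav2 −0.040, Vps35 −0.13 and Hgs −0.10. The WT minus KO difference with the same total was Rab5c −0.18, Rab11b −0.17, Rab14 −0.019, Snap23 −0.072, Stxbp3 −0.083, Nsf −0.23, Dnm2 −0.23, Cavin1 −0.16, Vps35 −0.14, Hgs −0.25 and Tsg101 −0.015, and with quantile normalization Rab5c −0.20, Vps35 −0.13 and Hgs −0.21. The cause was not tested. Low depth limits Dab2 most.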
